A study of Mus musculus with 8 samples.

Results

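The genes described here encode the carriers that move glucose, lactate and amino acids across membranes, together with their closest family members. They were taken by name, as every gene of the array whose symbol places it in the solute carrier families Slc1, Slc2, Slc3, Slc6, Slc7, Slc16, Slc36, Slc38 or Slc43. This gave 84 genes, measured by 149 probes, among 27338 genes that the array names. A gene was followed through its brightest probe, and 46 of the 84 were tested, because at least 1 of their probes stood well above background on 2 or more of the 8 arrays.

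The study used Ebf1-/- c-Kit+ cells of mouse fetal liver on a C57Bl/6 background, blood progenitors that lack the B-cell transcription factor EBF1. The cells were grown on OP9, a mouse bone marrow stromal line used as a feeder layer, with 5 ng/ml IL-7, 10 ng/ml Flt3 ligand and 10 ng/ml SCF. They received a pMys retrovirus that carried IRES-GFP with no insert (Empty, n = 2), with wild-type EBF1 (Ebf1wt, n = 3) or with EBF1 bearing the substitution H240A (Ebf1-H240A, n = 3). GFP+ cells were sorted 36 h later, and 0.2 µg of total RNA per sample was labelled with Cy3 for a 1-colour Agilent array. All 3 groups therefore share the Ebf1 deletion, the virus backbone, the cytokines and the sort, and EBF1 is supplied from the retroviral promoter and not from its own gene. The labels do not say whether replicates came from separate embryos or infections, so the p-values describe only how much these arrays vary, and that variation may be technical.

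As background, glucose enters most cells through facilitative transporters of the Slc2 (GLUT) family, and lactate leaves through proton-linked monocarboxylate transporters of the Slc16 (MCT) family. Large neutral amino acids enter through heteromeric transporters, in which a light chain of the Slc7 family is bound to the heavy chain encoded by Slc3a2 (4F2hc). Glutamine enters through Slc1a5 and the sodium-coupled Slc38 carriers, and several of these proteins, with Slc36a1 and Slc38a9 at the lysosome, act upstream of the growth regulator mTORC1. B-cell precursors are known to keep glucose and glutamine uptake under tight control while they pass from proliferation to differentiation.

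Between 54.6% and 59.6% of probes stood well above background on each array, and no spot was saturated. The correlation over the tested genes, each by its brightest probe, was r = 0.991 to 0.995 between arrays of 1 group. The number of arrays limits the precision. Of 6 B-lineage markers, 6 were higher in Ebf1wt than in Empty and 5 were higher in Ebf1-H240A, and 2 (Igll1 and Vpreb1) were lower in Ebf1-H240A than in Ebf1wt. In Ebf1-H240A the limma call of Cd79a was lost without Empty 1, and without any Ebf1-H240A array (adjusted p = 0.0505 to 0.0646). The Ebf1wt calls of Cd79a and Blnk were lost without Empty 1, where their log2 differences were 0.57 and 0.39. The probe for Ebf1 itself gave 10.11 to 10.44 on all arrays with no called difference, so it cannot check the labels. In bulk RNA, fewer cells of a type and less RNA per cell cannot be told apart. The Alb, Afp, Apoa1, Ttr and Fgb probes, which mark hepatocytes, were well above background on 0 of 8 arrays. The arrays lay on 2 slides, each of which held all 3 groups.

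Levels below are log2 of the processed intensity after each array was scaled to a common 75th percentile. A difference is a difference of such log2 levels, given with its standard error. A gene is called when its adjusted p from limma over all 16309 genes tested is under 0.05. Because probes differ in brightness for technical reasons, levels are compared between arrays of 1 gene and not between genes. Where groups are said not to overlap, this describes the arrays of that gene, and the share over all genes is not given.

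Of the 46 tested carriers, 27 changed between Ebf1wt and Empty, of which 12 were higher and 15 lower. That is 58.7%, where 38.4% of all genes were called (17.2% higher and 21.3% lower). Between Ebf1-H240A and Empty 30 changed, 16 higher and 14 lower, which is 65.2% beside 44.6% of all genes (21.6% higher and 23% lower). Between Ebf1-H240A and Ebf1wt 6 changed, 5 higher and 1 lower, or 13% beside 6.36% of all genes (3.64% higher and 2.72% lower). The median difference of the tested carriers was 0.01, 0.09 and 0.04 in the 3 comparisons, where that of all genes was -0.04, -0.00 and 0.02. With probes required to be well above background on all arrays, 25, 26 and 8 of 37 carriers were called, beside 44.2%, 50.9% and 9.6% of all genes. The comparisons with Empty share the same 2 control arrays. Without Empty 1 or without Empty 2 there were 21 calls for Ebf1wt, and 26 and 25 for Ebf1-H240A.

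**Figure D1:**
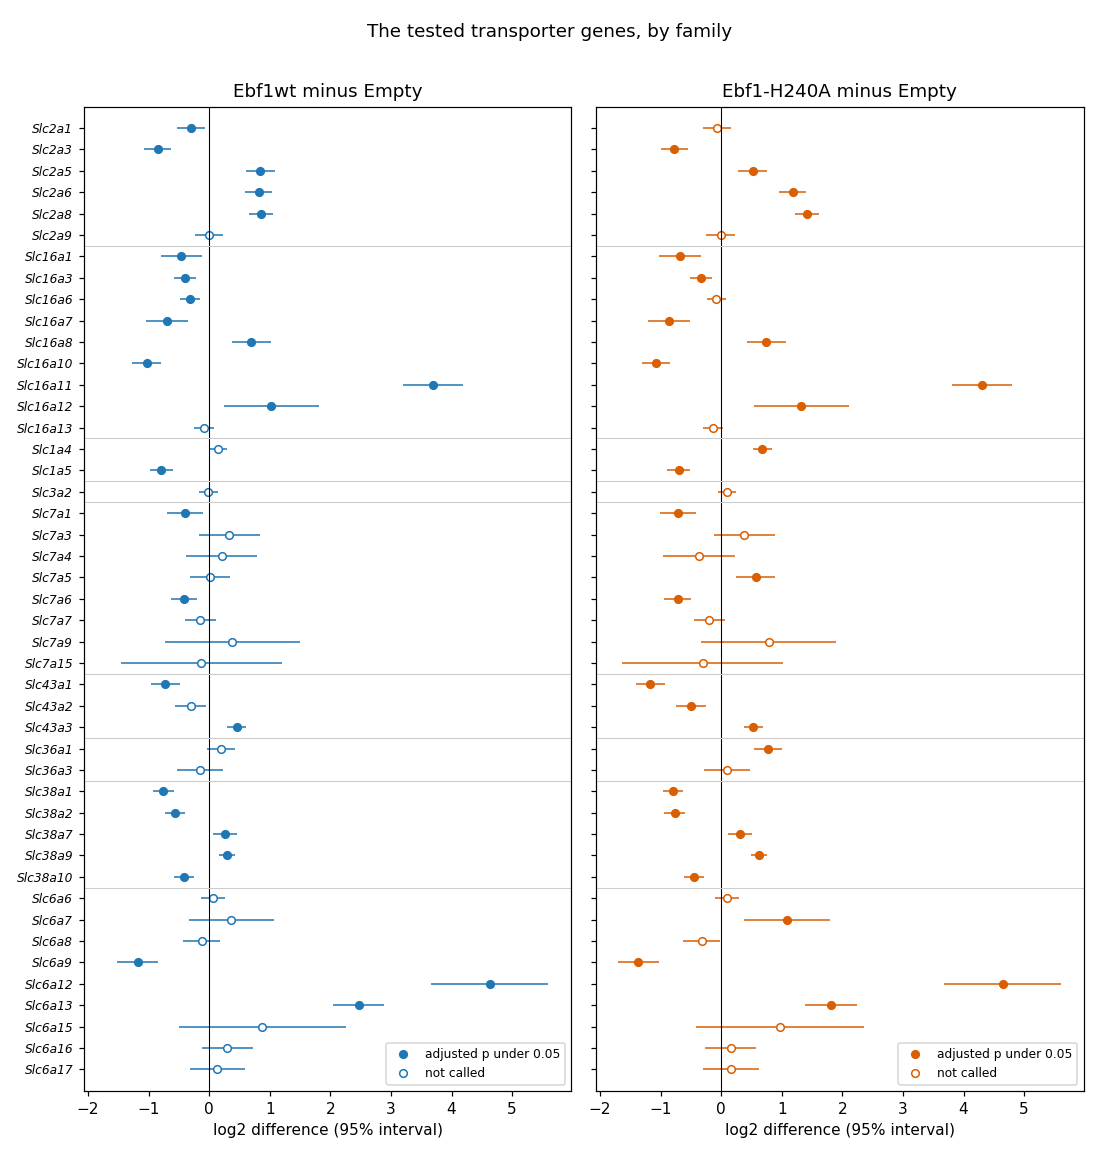
Log2 difference from Empty (x axis, with 95% intervals) of 45 of the 46 tested carriers in Ebf1wt (left) and Ebf1-H240A (right), grouped by family with grey lines. Filled points passed the test at an adjusted p under 0.05; Slc3a2 and Slc2a9 lie near 0, and Slc16a11, Slc6a12 and Slc6a13 stand far to the right of the others in both panels.

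Promoter sequence was available for 59 of the 84 genes in RefSeq (GRCm38.p6), as 80 windows of 250 bases before to 50 bases after a start site. Both strands were searched for 3 motifs by their letters. The core of the EBF1 palindrome, CCCNNGGGA, was found in 4 of 80 windows, of 3 genes (5.0%), beside 6.56% of the 32851 windows of all genes. The E-box of MYC and MAX, CACGTG, was found in 11 of 80 (13.8%), beside 7.15%. The composite element of ATF4 and C/EBP, TGATGNAA, was found in 4 of 80 (5.0%), beside 3.97%. A match is a description of the letters and no binding site. The 4 upstream stretches below are shown because they belong to genes that changed, described further on, and hold a whole match before the start site, with the matched letters in capitals. Slc38a7 and Slc16a12 also hold an E-box. The Slc6a9 stretch (chr4:117835008-117835145, plus strand) has the EBF1 core on its reverse strand. Those of Slc43a1 (chr2:84840239-84840322), Slc16a1 (chr3:104638414-104638523) and Slc36a1 (chr11:55204289-55204339), all on the plus strand, have an E-box.
Slc6a9: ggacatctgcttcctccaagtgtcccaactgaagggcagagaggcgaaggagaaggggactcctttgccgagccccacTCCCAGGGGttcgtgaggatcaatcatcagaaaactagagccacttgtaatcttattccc
Slc43a1: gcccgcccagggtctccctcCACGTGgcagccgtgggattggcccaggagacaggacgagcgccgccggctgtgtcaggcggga
Slc16a1: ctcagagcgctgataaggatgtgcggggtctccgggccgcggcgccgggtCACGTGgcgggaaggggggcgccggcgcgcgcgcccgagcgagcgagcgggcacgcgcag
Slc36a1: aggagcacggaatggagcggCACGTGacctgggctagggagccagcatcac
Of these 4 genes Slc6a9, Slc43a1 and Slc16a1 fell with both forms of EBF1 and Slc36a1 rose in Ebf1-H240A, so the E-box was found beside changes in either direction.

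The glucose carriers moved in both directions. Slc2a1, the GLUT1 transporter that supplies basal glucose in most cells, read 12.13 and 12.15 in Empty, 11.91, 11.87 and 11.74 in Ebf1wt, and 12.22, 12.05 and 11.94 in Ebf1-H240A. All 3 Ebf1wt arrays lay below both Empty arrays, while the Ebf1-H240A arrays overlapped them. The difference of -0.30 ± 0.10 (SE) for Ebf1wt just passed (adjusted p = 0.0473), and that of -0.07 ± 0.10 for Ebf1-H240A did not (adjusted p = 0.592). The Ebf1wt call was lost on leaving out any array but Ebf1-H240A 1 or 3, with adjusted p up to 0.159 (without Empty 2), in the fit blocked by slide (-0.29, adjusted p = 0.0669), and in the authors' deposited value table (-0.19, adjusted p = 0.252). The difference between the EBF1 forms was 0.23 ± 0.09 (adjusted p = 0.176), so Slc2a1 is not shown to differ between them.

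Slc2a3, the high-affinity GLUT3 transporter of blood cells and neurons, read 10.33 and 10.52 in Empty, 9.60, 9.65 and 9.47 in Ebf1wt, and 9.62, 9.75 and 9.60 in Ebf1-H240A. The 6 arrays with EBF1 lay together and all below Empty. The level fell by 0.85 ± 0.09 in Ebf1wt, or 1.81-fold (adjusted p = 0.000564), and by 0.77 ± 0.09 in Ebf1-H240A (adjusted p = 0.000683). Slc2a3 was called under all alternatives except within single slides.

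Slc2a6 (GLUT6), a carrier known from lysosomal membranes of macrophages, read 11.53 and 11.63 in Empty, 12.28, 12.41 and 12.51 in Ebf1wt, and 12.78, 12.66 and 12.86 in Ebf1-H240A. The 3 groups did not overlap, and Empty was the lowest. It rose by 0.82 ± 0.09 in Ebf1wt (adjusted p = 0.000779) and by 1.18 ± 0.09 in Ebf1-H240A (adjusted p = 0.000124), and the difference between these 2 was 0.37 ± 0.08 (adjusted p = 0.0522). Slc2a8 (GLUT8), another carrier of intracellular membranes, read 7.82 and 7.84 in Empty, 8.65, 8.68 and 8.71 in Ebf1wt, and 9.13, 9.38 and 9.21 in Ebf1-H240A. These groups were also separate, in the same order. It was 1.80-fold higher in Ebf1wt (adjusted p = 0.000344) and 2.66-fold higher in Ebf1-H240A (adjusted p = 3.03e-05), and a second, dimmer probe for the gene gave 0.79 and 1.26 on the log2 scale. The fructose transporter Slc2a5 read 5.25 and 5.32 in Empty, 6.30, 6.05 and 6.03 in Ebf1wt, and 5.73, 5.78 and 5.88 in Ebf1-H240A. It rose by 0.84 ± 0.10 and 0.52 ± 0.10 (adjusted p = 0.000866 and 0.00563), the second lost in the authors' deposited value table (0.31, adjusted p = 0.0723). With normexp Slc2a5 gave 0.44 and 0.31 (adjusted p = 0.00411 and 0.0313). Of the 11 Slc2 genes, Slc2a9 was tested without a call, with differences of -0.00 and -0.01. The 5 others were not tested, among them Slc2a4, the insulin-responsive carrier of muscle and fat.

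The 4 proton-linked lactate and pyruvate carriers were all tested, and 3 were lower and 1 higher in each comparison with Empty. Slc16a1 (MCT1), which carries lactate in either direction, read 9.92 and 9.89 in Empty, 9.57, 9.41 and 9.37 in Ebf1wt, and 8.93, 9.36 and 9.38 in Ebf1-H240A. Every array with EBF1 was lower than both Empty arrays. It fell by 0.68 ± 0.15 in Ebf1-H240A (adjusted p = 0.00851) and by 0.46 ± 0.15 in Ebf1wt (adjusted p = 0.0448). The Ebf1wt call was lost on leaving out any array but Ebf1-H240A 1 or 3 (adjusted p up to 0.157, without Empty 1), and in the fit blocked by slide (adjusted p = 0.054). Slc16a3 (MCT4), the lactate exporter of glycolytic cells, read 11.32 and 11.33 in Empty, 10.91, 10.91 and 10.97 in Ebf1wt, and 10.92, 11.12 and 10.94 in Ebf1-H240A. The decrease of 1.32-fold in Ebf1wt passed (adjusted p = 0.00702), as did that of 1.26-fold in Ebf1-H240A (adjusted p = 0.0121). The second call was lost without Empty 1 or Empty 2 (adjusted p = 0.0538 and 0.0612). With normexp background correction both differences shrank and lost their calls (-0.24 and -0.23, adjusted p = 0.12 and 0.115).

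Slc16a7 (MCT2), which has a high affinity for pyruvate, read 6.67 and 6.77 in Empty, 6.07, 5.93 and 6.05 in Ebf1wt, and 6.16, 5.68 and 5.73 in Ebf1-H240A. It fell by 0.70 ± 0.15 (adjusted p = 0.0097; 0.0605 without Empty 2) and by 0.86 ± 0.15 (adjusted p = 0.00325). Slc16a8 (MCT3), a lactate carrier best known from the retinal pigment epithelium, was higher, by 0.69 ± 0.14 and 0.74 ± 0.14 (adjusted p = 0.00743 and 0.00457). Without Empty 2 the Ebf1wt increase of Slc16a8 was 0.55 (adjusted p = 0.0522). Here and below, Slc16a6, Slc16a8, Slc16a13, Slc38a7, Slc38a10, Slc43a3, Atf4 and Myc were singled out after their values were seen. Neither Bsg nor Emb, which encode membrane chaperones of monocarboxylate transporters, was called in any comparison (differences from Empty of -0.15 and -0.13 in Ebf1wt, and -0.02 and 0.09 in Ebf1-H240A).

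**Figure D2:**
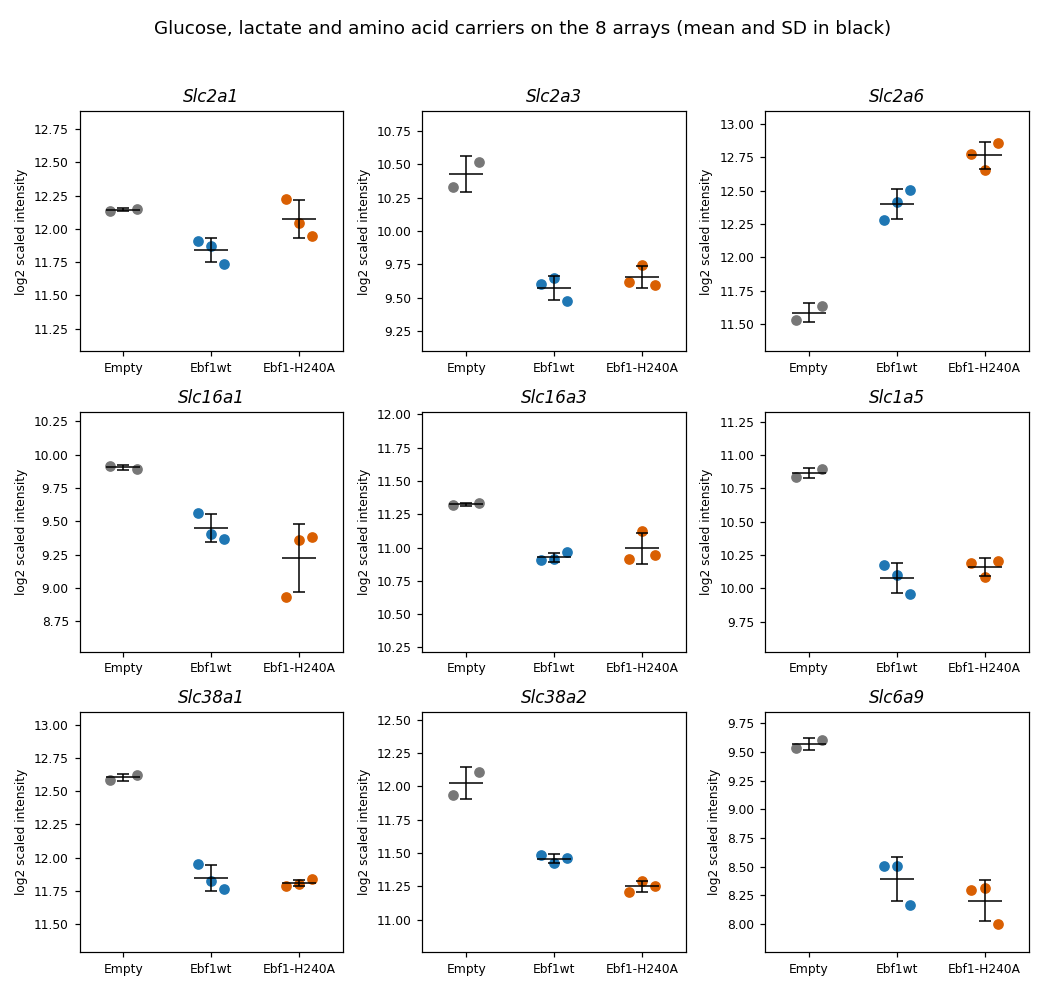
Log2 scaled intensity of 9 glucose, lactate and amino acid carriers on each of the 8 arrays (points), with the group mean and SD in black; every panel has its own axis range. Slc2a6 is higher in both EBF1 groups than in Empty, and Slc2a3, Slc16a1, Slc16a3, Slc1a5, Slc38a1, Slc38a2 and Slc6a9 are lower, with no overlap between Empty and either group. These carriers were also called, and the share of all genes without such overlap is not given.

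The rest of the Slc16 family held changes in both directions. Slc16a11, an orphan member with variants linked to type 2 diabetes, read 2.67 and 2.16 in Empty, 6.30, 5.84 and 6.19 in Ebf1wt, and 6.76, 6.91 and 6.48 in Ebf1-H240A. It was near background in Empty, where 1 of 2 arrays was well above it, and measured on all 6 others. The increase was 12.9-fold in Ebf1wt (adjusted p = 3.63e-05) and 19.7-fold in Ebf1-H240A (adjusted p = 1.49e-05). These folds hold for the 75th-percentile scaling of the processed signal. On the log2 scale, normexp background correction gave 1.11 and 1.53 (adjusted p = 5.11e-07 and 3.32e-09), and the authors' deposited value table gave 1.87 and 2.45, so Slc16a11 stayed called while its fold depended on the processing.

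Slc16a10 (TAT1), which exports aromatic amino acids, went the other way, with 7.53 and 7.63 in Empty, 6.43, 6.60 and 6.61 in Ebf1wt, and 6.39, 6.64 and 6.49 in Ebf1-H240A. It was 2.05-fold lower in Ebf1wt and 2.11-fold lower in Ebf1-H240A (adjusted p = 0.000332 and 0.000226). Slc16a12, a creatine carrier, was dim, with 1 of 2 Empty arrays well above background. Its increases of 1.03 ± 0.33 and 1.32 ± 0.33 (adjusted p = 0.0453 and 0.0156) fell to 0.48 and 0.78 without Empty 1 (adjusted p = 0.219 and 0.0639). The Ebf1wt call was also lost without any 1 of Ebf1wt 1 or 3 or the 3 Ebf1-H240A arrays (adjusted p = 0.0698 to 0.109), and with normexp it was 0.23 (adjusted p = 0.138), where that for Ebf1-H240A was 0.32 (adjusted p = 0.0288). Slc16a6, a ketone body and taurine carrier, was lower in Ebf1wt by its brightest probe (-0.32, adjusted p = 0.0109; 0.0667 without Empty 2), and a dimmer probe gave 0.14 on the log2 scale. That call was lost with normexp (-0.19, adjusted p = 0.241) and for the mean over probes (-0.09, adjusted p = 0.904). With normexp Slc16a10 gave -0.60 and -0.60 (adjusted p = 0.000395 and 0.000318), Slc16a7 -0.35 and -0.42, and Slc16a8 0.44 and 0.49, all still called.

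Slc1a5, Slc38a1 and Slc38a2, which carry glutamine across the plasma membrane, were lower with both forms of EBF1. Slc1a5 (ASCT2), the sodium-dependent exchanger of glutamine, alanine, serine and cysteine, read 10.84 and 10.89 in Empty, 10.17, 10.10 and 9.96 in Ebf1wt, and 10.19, 10.09 and 10.20 in Ebf1-H240A. Slc38a1 (SNAT1) read 12.59 and 12.62 in Empty, 11.96, 11.82 and 11.77 in Ebf1wt, and 11.79, 11.80 and 11.84 in Ebf1-H240A. Slc38a2 (SNAT2), which cells raise when amino acids are short, read 11.94 and 12.11 in Empty, 11.49, 11.42 and 11.47 in Ebf1wt, and 11.21, 11.29 and 11.25 in Ebf1-H240A. For each of these 3 genes the 6 arrays with EBF1 lay below both Empty arrays. Slc1a5 fell by 0.79 ± 0.08 and 0.70 ± 0.08 (adjusted p = 0.000483 and 0.000628). Slc38a1 fell by 0.75 ± 0.07 and 0.79 ± 0.07 (adjusted p = 0.00032 and 0.000208), and Slc38a2 by 0.56 ± 0.07 and 0.77 ± 0.07 (adjusted p = 0.00109 and 0.000223). All 3 were called under all alternatives except within single slides.

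The other Slc38 genes were called too, so that all 5 tested of the 10 members changed against Empty. Slc38a10 fell by 0.41 ± 0.07 and 0.45 ± 0.07 (adjusted p = 0.00383 and 0.00199). Slc38a7 and Slc38a9, both lysosomal carriers of glutamine or arginine, were higher. Slc38a9, a sensor of lysosomal arginine for mTORC1, read 8.01 and 7.99 in Empty, 8.31, 8.28 and 8.31 in Ebf1wt, and 8.66, 8.63 and 8.57 in Ebf1-H240A. The spread within each group was small and the groups were separate. It rose by 0.30 ± 0.05 and 0.62 ± 0.05 (adjusted p = 0.00563 and 0.000196), and the first was 0.18 with normexp (adjusted p = 0.224). For Slc38a7 the increases were 0.26 ± 0.08 and 0.31 ± 0.08 (adjusted p = 0.047 and 0.0209). The first was lost without any 1 of 6 arrays, both Empty arrays among them, and the second without any 1 of 4 (adjusted p up to 0.2 and 0.111, both without Empty 1).

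Among the heteromeric transporters the shared heavy chain was not called in any comparison. Slc3a2 read 12.09 and 12.12 in Empty, 12.11, 12.12 and 12.04 in Ebf1wt, and 12.14, 12.17 and 12.27 in Ebf1-H240A. Its differences from Empty were -0.01 (95% interval -0.16 to 0.14) and 0.09 (-0.06 to 0.24), so changes of the size seen for Slc1a5 lie outside both intervals. Its light chains differed from each other. Slc7a5 (LAT1), the main importer of leucine and other large neutral amino acids, read 8.63 and 8.26 in Empty, 8.43, 8.60 and 8.35 in Ebf1wt, and 9.17, 8.91 and 8.97 in Ebf1-H240A. Empty and Ebf1wt overlapped, and all Ebf1-H240A arrays lay above both. Its difference was 0.01 ± 0.14 in Ebf1wt (adjusted p = 0.951) and 0.57 ± 0.14 in Ebf1-H240A (adjusted p = 0.0148). Without Empty 2 the latter was 0.38 (adjusted p = 0.0896).

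Slc7a6 (y+LAT2), a light chain that exchanges arginine for glutamine, read 7.88 and 7.84 in Empty, 7.53, 7.44 and 7.38 in Ebf1wt, and 7.02, 7.28 and 7.13 in Ebf1-H240A. It fell by 0.41 ± 0.09 in Ebf1wt (adjusted p = 0.0114; 0.0662 without Empty 1) and by 0.72 ± 0.09 in Ebf1-H240A (adjusted p = 0.000889), and the difference between the forms did not pass (-0.31, adjusted p = 0.076). With normexp the differences from Empty were -0.15 (adjusted p = 0.335) and -0.38 (adjusted p = 0.00949). The related Slc7a7 (y+LAT1) was not called, with differences of -0.15 ± 0.11 and -0.20 ± 0.11 (adjusted p = 0.334 and 0.182). Slc7a8 (LAT2) and Slc7a11 (xCT, the cystine importer of glutathione synthesis) were not tested, and all 4 probes for Slc7a11 were well above background on 0 of 8 arrays. Of 10 light chains 5 were tested, with 1 lower in Ebf1wt and 1 higher and 1 lower in Ebf1-H240A.

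Slc7a1 (CAT1), the main arginine and lysine importer, read 10.39 and 10.12 in Empty, 9.99, 9.87 and 9.71 in Ebf1wt, and 9.57, 9.65 and 9.40 in Ebf1-H240A. The groups were ordered Empty, Ebf1wt and Ebf1-H240A from high to low, without overlap. It fell by 0.71 ± 0.13 in Ebf1-H240A (adjusted p = 0.00379) and by 0.40 ± 0.13 in Ebf1wt (adjusted p = 0.0447). The Ebf1wt call was lost without Empty 1, where the difference was -0.26 (adjusted p = 0.24), and without Ebf1wt 2 or 3 or Ebf1-H240A 1 or 2 (adjusted p = 0.0545 to 0.105). The mean over the probes for Slc7a1 was -0.24 in Ebf1wt (adjusted p = 0.276), and with no filter on dim probes the adjusted p was 0.111. Slc1a4 (ASCT1), a carrier of serine and alanine, read 6.50 and 6.50 in Empty, 6.66, 6.70 and 6.57 in Ebf1wt, and 7.14, 7.17 and 7.23 in Ebf1-H240A. It was 1.60-fold higher in Ebf1-H240A (adjusted p = 0.000249), and its difference of 0.14 ± 0.06 in Ebf1wt did not pass (adjusted p = 0.126). A dimmer probe for Slc1a4 gave 0.30 in Ebf1wt, and the mean over its probes did pass there (0.22, adjusted p = 0.0404 by limma). The Slc1 glutamate carriers of neurons and glia, Slc1a1, Slc1a2, Slc1a3, Slc1a6 and Slc1a7, were not tested.

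In the Slc43 family Slc43a1 fell and Slc43a3 rose with both forms, and Slc43a2 passed in Ebf1-H240A. Slc43a1 (LAT3) read 8.07 and 8.06 in Empty, 7.41, 7.22 and 7.38 in Ebf1wt, and 6.81, 7.06 and 6.81 in Ebf1-H240A. It was 1.65-fold lower in Ebf1wt and 2.25-fold lower in Ebf1-H240A (adjusted p = 0.00172 and 0.000169). Slc43a2 (LAT4) read 7.60 and 7.70 in Empty, 7.39, 7.20 and 7.44 in Ebf1wt, and 7.01, 7.21 and 7.24 in Ebf1-H240A. Its difference was -0.50 ± 0.11 in Ebf1-H240A (adjusted p = 0.00825; 0.0554 without Empty 2) and -0.31 ± 0.11 in Ebf1wt, just short of the threshold (adjusted p = 0.0574). It did pass when slide was a block (adjusted p = 0.0276), when probes had to be well above background on all arrays (adjusted p = 0.0394) or when Ebf1-H240A 1 was left out (adjusted p = 0.0461), and a second probe gave -0.12 and -0.05 on the log2 scale. For Slc43a2 in Ebf1-H240A the mean over probes was -0.27 (adjusted p = 0.104), so that call rests on the brighter probe, and normexp gave -0.33. Slc43a3, a purine base transporter, rose by 0.46 ± 0.07 and 0.53 ± 0.07 (adjusted p = 0.00196 and 0.000829).

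In the sodium and chloride dependent Slc6 family, 9 of 18 genes were tested. Slc6a9 (GlyT1), the glycine importer that feeds haem synthesis in red cell precursors, read 9.53 and 9.61 in Empty, 8.504, 8.505 and 8.17 in Ebf1wt, and 8.30, 8.31 and 7.997 in Ebf1-H240A. All 6 arrays with EBF1 lay below both Empty arrays. It was 2.26-fold lower in Ebf1wt and 2.58-fold lower in Ebf1-H240A (adjusted p = 0.00093 and 0.000386), called under all alternatives except within single slides. Red cell markers moved beside it. Of 9 markers 6 were tested, and 3 were lower and 1 was higher in each comparison with Empty. Between the forms 2 were lower (Hbb-bt and Tfrc). Beside these counts, 38.4% and 44.6% of all genes were called against Empty, and 6.36% between the forms. The intensities of the 6 tested markers were also summed, so the brightest probes weigh most. The log2 of this sum was 13.41 to 13.53 in Empty, 11.37 to 11.64 in Ebf1wt and 10.91 to 10.98 in Ebf1-H240A. Klf1 was well above background on 0 of 8 arrays, and Hbb-bt fell by 3.13 in Ebf1wt and 3.58 in Ebf1-H240A. The call of Epor was lost in 7 settings for Ebf1wt (adjusted p = 0.053 to 0.22) and without Empty 1 or Empty 2 for Ebf1-H240A (adjusted p = 0.128 and 0.0505). Between the forms Hbb-bt and Tfrc were lost on leaving out any of 4 and 3 arrays (adjusted p = 0.0524 to 0.057 and 0.0569 to 0.0631). The part of such cells in the Slc6a9 difference was not tested.

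Slc6a12 and Slc6a13, the betaine and GABA transporters BGT1 and GAT2, were, with Slc16a11, the carriers with the largest increases against Empty. Slc6a13 read 5.28 and 4.85 in Empty, 7.34, 7.57 and 7.69 in Ebf1wt, and 6.87, 6.69 and 7.09 in Ebf1-H240A. All 8 arrays were well above background and the groups did not overlap, with Ebf1wt the highest. It was 5.53-fold higher in Ebf1wt and 3.52-fold higher in Ebf1-H240A (adjusted p = 0.000104 and 0.000319), and the difference between the 2 forms was -0.65 ± 0.16 (adjusted p = 0.0635). Slc6a12 read 5.74, 6.05 and 6.18 in Ebf1wt and 5.89, 5.35 and 6.78 in Ebf1-H240A, and neither Empty array was well above background for it. It was at least 11.3-fold higher in Ebf1wt and at least 11.4-fold higher in Ebf1-H240A (adjusted p = 0.000233 and 0.000183). These bounds set the mean of the bright group against the lowest signal that stood well above background on the Empty arrays, and they hold for the main scaling only. With normexp the log2 differences were 1.18 and 1.18 for Slc6a12 (adjusted p = 2.71e-05 and 2.14e-05), and 1.41 and 0.96 for Slc6a13 (adjusted p = 8.66e-09 and 2.03e-06). In the authors' deposited value table they were 2.497 and 2.376 for Slc6a12, and 1.99 and 1.39 for Slc6a13. Slc6a7, the proline transporter of brain synapses, was well above background only on the 3 Ebf1-H240A arrays. Slc6a7 entered the test only through those 3 arrays, and Slc6a12 only through the arrays with EBF1, so their p-values are no independent support. Slc16a11 and Slc16a12 had 1 of 2 Empty arrays well above background and also needed arrays with EBF1 to enter the test. Their p-values against Empty carry the same limit. On the main scaling Slc6a7 was at least 1.34-fold higher in Ebf1-H240A than in Empty (adjusted p = 0.0231). That call was lost without either Empty array, and without Ebf1-H240A 1 or 3 (adjusted p = 0.0634 and 0.0504). It was also lost with normexp (0.24, adjusted p = 0.108), in the authors' deposited value table (0.30, adjusted p = 0.17), with no filter on dim probes (adjusted p = 0.0518) and with the replicate block (adjusted p = 0.0659). The taurine carrier Slc6a6 and the creatine carrier Slc6a8 were not called.

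Some carriers lie near each other in the genome, and 4 pairs with probes under 200 kb apart had both genes tested. Whether other genes lie between them was not examined. In the mm9 coordinates of the scanner files, the Slc16a11 probe lies at chr11:70029833-70029892 on the plus strand and the Slc16a13 probe at chr11:70030650-70030709 on the minus strand, with 757 bases between them. Slc16a13 stayed at 6.52 to 6.79 on all arrays, with differences of -0.09 ± 0.07 and -0.14 ± 0.07 (adjusted p = 0.39 and 0.162), while Slc16a11 rose with both forms. The Slc6a13 and Slc6a12 probes, at chr6:121287597-121287656 and chr6:121315541-121315600, are 27.9 kb apart, and both genes rose. The Slc43a1 and Slc43a3 probes, at chr2:84703269-84703328 and chr2:84797987-84798046, are 94.7 kb apart, and their genes moved in opposite directions. The Slc38a1 and Slc38a2 probes, at chr15:96406793-96406852 and chr15:96518491-96518550, are 112 kb apart, and both genes fell. The files do not say whether these positions are in exons or untranslated regions.

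**Figure D3:**
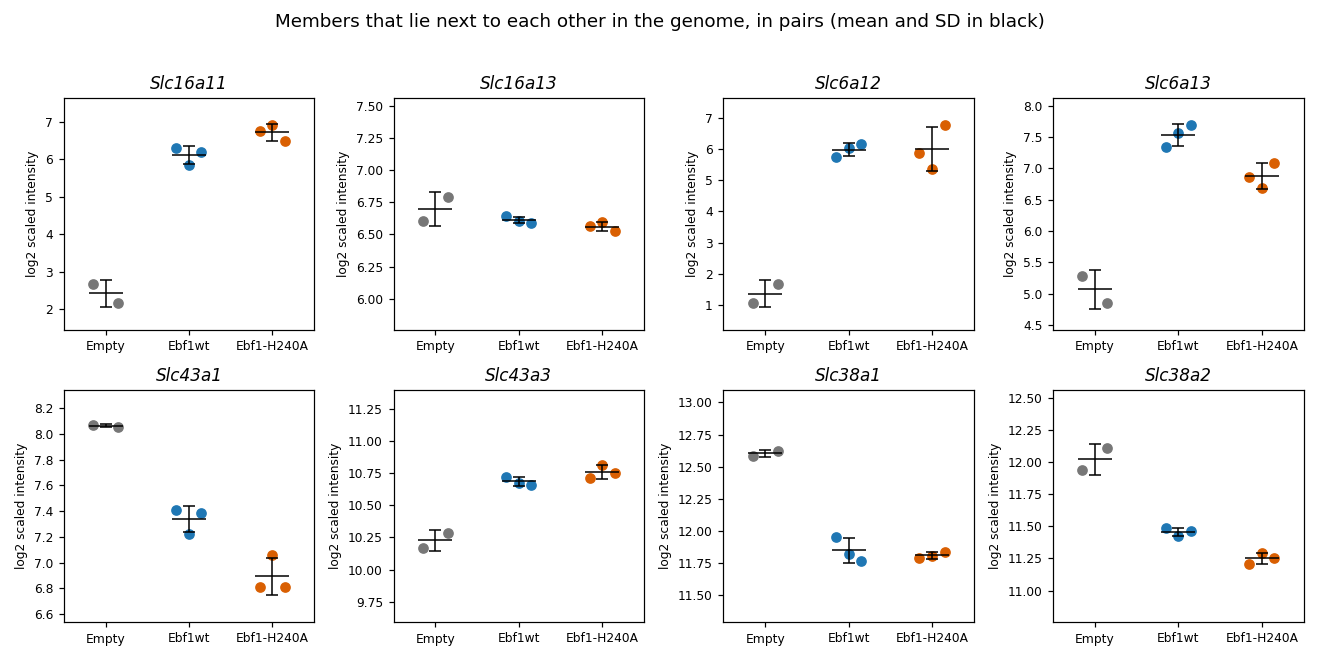
Log2 scaled intensity on the 8 arrays (points, with mean and SD in black) of 4 pairs of carrier genes with probes under 200 kb apart. The panels of a pair stand side by side, and each panel has its own axis range. Slc16a11 rises beside a flat Slc16a13, Slc6a12 and Slc6a13 rise together, Slc43a1 falls beside a rising Slc43a3, and Slc38a1 and Slc38a2 fall together.

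The comparison of the 2 EBF1 forms asks whether the substitution alters the response of these carriers. Of the 46, 40 did not pass the test, and for Slc2a3, Slc38a1 and Slc1a5 the 95% intervals of the difference, -0.12 to 0.27, -0.19 to 0.11 and -0.09 to 0.26, leave out the size of their change from Empty. The 6 that passed were Slc2a8, Slc1a4, Slc36a1, Slc38a9 and Slc7a5, higher in Ebf1-H240A, and Slc43a1, lower there. Slc36a1 (PAT1), the lysosomal proton-coupled exporter of small amino acids, read 6.07 and 6.04 in Empty, 6.20, 6.26 and 6.30 in Ebf1wt, and 7.01, 6.70 and 6.77 in Ebf1-H240A. The Ebf1-H240A arrays stood clear of the other 5. Its difference from Empty was 0.20 ± 0.10 in Ebf1wt (adjusted p = 0.162) and 0.77 ± 0.10 in Ebf1-H240A (adjusted p = 0.00098; 0.48 with normexp, adjusted p = 0.00164). By the brightest probe, the change of Slc1a4, Slc7a5 and Slc36a1 was thus called in Ebf1-H240A and not in Ebf1wt, and the direct test between the forms passed. For Slc1a4 the mean over its probes was called in Ebf1wt too. For Slc2a8, Slc38a9 and Slc43a1 both forms moved the gene the same way, further in Ebf1-H240A.

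The size of these 6 differences was modest. Between Ebf1-H240A and Ebf1wt, Slc2a8 differed by 0.56 ± 0.07 (adjusted p = 0.00954) and Slc1a4 by 0.54 ± 0.06 (adjusted p = 0.00487), and both calls held without each array in turn, with the slide as a block and with a replicate block. The Slc2a8 call also held under the other settings tried, but that of Slc1a4 was lost with normexp (0.27, adjusted p = 0.184) and in the authors' deposited value table (0.41, adjusted p = 0.0729). Slc36a1 differed by 0.57 ± 0.09 (adjusted p = 0.0159). Its call was lost without Ebf1wt 1 or 2 (0.0651 and 0.061), with the replicate block (0.062) and with no filter on dim probes (0.0596). It was also lost with normexp (0.33, adjusted p = 0.0617) and in the authors' deposited value table (0.42, adjusted p = 0.0766). Slc38a9 differed by 0.32 ± 0.05 (adjusted p = 0.0155). Its call was lost without Ebf1wt 1, Ebf1wt 2 or Ebf1-H240A 1 (0.0582, 0.0666 and 0.0626) and with the replicate block (0.07). The Slc38a9 call was also lost with normexp (0.0534), in the authors' deposited value table (0.054) and with no filter on dim probes (0.0918). The mean over its 4 probes, one of which was well above background on 3 of 8 arrays, gave 0.09 (adjusted p = 0.754). Slc7a5 differed by 0.55 ± 0.12 (adjusted p = 0.049). Its call was lost without any 1 of the 6 arrays compared (adjusted p up to 0.149, without Ebf1wt 1) and with the slide as a block (0.0627). It was also lost in the authors' deposited value table (0.0709), with quantile normalization (0.0507), with the replicate block (0.0986) and with no filter on dim probes (0.1395). Slc43a1 differed by -0.45 ± 0.09 (adjusted p = 0.0348). Its call was lost without any array but Ebf1-H240A 2 (adjusted p up to 0.121, without Ebf1wt 1) and with the slide as a block (0.0782). It was also lost in the authors' deposited value table (0.0741), with the replicate block (0.1174) and with no filter on dim probes (0.1169).

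**Figure D4:**
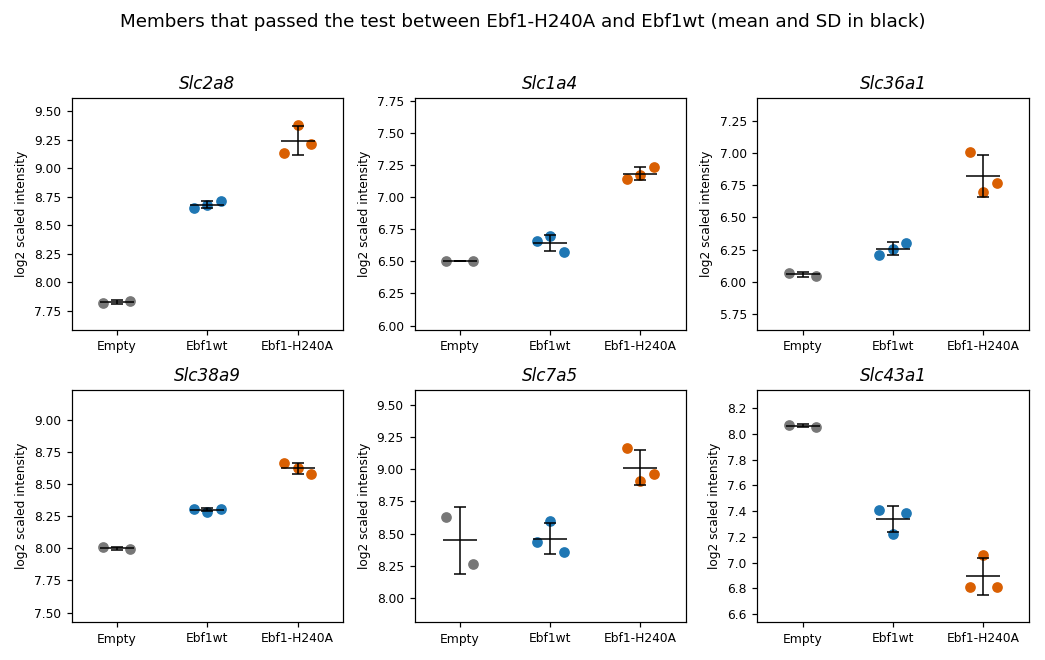
Log2 scaled intensity on the 8 arrays (points, with mean and SD in black) of the 6 carriers called between Ebf1-H240A and Ebf1wt; each panel has its own axis range. The 6 were picked by the test between these groups, so the separation of Ebf1-H240A from Ebf1wt arrays in each panel is no further result. Slc43a1 is the only panel where Ebf1-H240A is the lower group. Carriers that were not called, such as Slc2a6 and Slc16a11, also had no overlap between these groups. The share of all genes without such overlap is not given.

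Within single slides the 6 differences kept their sign. On slide 1 (1 Ebf1wt and 2 Ebf1-H240A arrays) and slide 2 (2 and 1 arrays), Slc2a8 gave 0.58 and 0.53, Slc1a4 0.46 and 0.62, Slc36a1 0.60 and 0.51, Slc38a9 0.36 and 0.27, Slc7a5 0.44 and 0.57, and Slc43a1 -0.29 and -0.59. None was called within a slide, where limma called 0 of the 46 carriers, with 6 at an unadjusted p under 0.05 on each slide. Of the calls against Empty, all 27 for Ebf1wt and all 30 for Ebf1-H240A had the same sign on both slides. The slide as a block left 25, 30 and 4 carriers called in the 3 comparisons.

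Markers of myeloid, stromal and other cells were counted too. Beside these counts, 38.4% of all genes were called in Ebf1wt and 44.6% in Ebf1-H240A against Empty, and 6.36% between the forms. Of 8 myeloid markers 6 were tested, and 1 was higher and 2 lower in Ebf1wt, 4 higher and 2 lower in Ebf1-H240A, and 2 higher between the forms (S100a9 and Mpo). Of the 4 higher, the calls of Lyz2 and S100a8 were lost without Empty 1, Empty 2, Ebf1-H240A 1 or Ebf1-H240A 3. The intensities of the 6 tested myeloid markers were also summed. The log2 of this sum was 14.37 to 14.65 in Empty, 14.09 to 14.50 in Ebf1wt and 14.75 to 15.17 in Ebf1-H240A. Elane and Csf3r were at 0 of 8 arrays. Of 16 stromal markers 13 were tested, with 4 higher in Ebf1wt, 7 in Ebf1-H240A and 1 between the forms (Pdgfrb). The Pdgfrb call was lost without any array but Ebf1-H240A 3 and in the fit blocked by slide (adjusted p = 0.051 to 0.106). Against Empty the Ebf1-H240A calls of Col3a1 and Sparc were each lost in 4 settings (adjusted p = 0.0654 to 0.126 and 0.0541 to 0.174), that of Acta2 in 1 (adjusted p = 0.0913), and the Ebf1wt call of Sparc in 2 (adjusted p = 0.0506 and 0.135). For the 13 tested stromal markers the log2 of the summed intensity was 14.54 in Empty, 14.72 to 15.05 in Ebf1wt and 14.69 to 14.80 in Ebf1-H240A. Pdgfra, Lum and Postn were at 0 of 8 arrays. Of 7 T and innate lymphoid markers 6 were tested and 5 were lower with each form, among them Cd3g and Gata3. Of 6 progenitor markers 4 were lower and 1 higher with each form, but not the same ones. Flt3 was higher in Ebf1wt (0.34) and lower in Ebf1-H240A (-0.32), Cd93 was lower in Ebf1wt (-0.33) and higher in Ebf1-H240A (0.24), and both were called between the forms (-0.66 and 0.57, adjusted p = 0.0109 and 0.00729). The Ebf1wt call of Flt3 was lost without any array but Ebf1wt 3 (adjusted p = 0.056 to 0.149), and the Ebf1-H240A call of Cd93 without any array but Ebf1-H240A 2 (adjusted p = 0.0512 to 0.132). The Ebf1-H240A call of Flt3 was lost in 7 settings (adjusted p = 0.0505 to 0.153), and the Ebf1wt call of Cd93 without Empty 1 or Empty 2 (adjusted p = 0.0723 and 0.0612). Kit, the marker of the starting cells, fell by 0.79 in Ebf1wt and by 1.14 in Ebf1-H240A. Of 8 mast cell and megakaryocyte markers 4 were tested, 2 higher and 2 lower with each form. Of 8 hepatocyte markers 7 were on the array and 2 were tested, Ahsg and Trf, both lower. The part of these cells in the carrier differences was not tested.

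Beside the counts of called genes in the lists that follow, 38.4% of all genes were called in Ebf1wt and 44.6% in Ebf1-H240A against Empty, and 6.36% between the forms. Of 12 tested genes for hexokinases and for lactate or pyruvate enzymes, 5 were lower and 1 higher in Ebf1wt, and 5 lower and 2 higher in Ebf1-H240A. Hk2, the inducible hexokinase that traps glucose, fell by 0.79 ± 0.08 and 0.51 ± 0.08 (adjusted p = 0.000504 and 0.00263). In Ebf1-H240A the calls of Ldha and Pdha1 were lost without Empty 1, and those of Hk3 and Pdha1 without Empty 2. Ldhb, the lactate dehydrogenase subunit linked to lactate use, read 2.44 and 2.40 in Empty, 3.38, 3.41 and 3.27 in Ebf1wt, and 4.06, 4.02 and 3.96 in Ebf1-H240A. Its probe was well above background on 0 of 2 Empty, 2 of 3 Ebf1wt and 3 of 3 Ebf1-H240A arrays, so only a bound can be given against Empty. Ldhb was at least 1.62-fold higher in Ebf1wt and at least 2.56-fold higher in Ebf1-H240A (adjusted p = 0.000112 and 9.12e-06). Ldhb entered the test only through the arrays with EBF1, so these p-values are no independent support. It was the 1 gene of the list called between the forms (0.66, adjusted p = 0.00321). Of 9 tested chaperones and trafficking genes, 2 were higher and 1 lower with each form, or 3 of 9 in each comparison with Empty beside the 38.4% and 44.6% of all genes, and 0 were called between the forms by limma (2 at an unadjusted p under 0.05). Tbc1d1, which holds GLUT vesicles inside the cell, rose by 0.54 in Ebf1wt (adjusted p = 0.0027) and by 0.40 in Ebf1-H240A (adjusted p = 0.00762; 0.0535 without Empty 1). Arrdc3, an arrestin-domain relative of the GLUT regulator Txnip, rose by 1.14 and 1.11 (adjusted p = 0.0149 and 0.0137), both lost without Empty 1 (0.0879 and 0.0808) and the first also without Empty 2 (0.0511). Tbc1d4, which holds GLUT4 vesicles, fell by 0.50 (adjusted p = 0.0221) and 0.91 (adjusted p = 0.00151). Its Ebf1wt call was lost without Empty 1, Empty 2, Ebf1wt 1 or Ebf1wt 2 (adjusted p = 0.0576 to 0.0962).

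The amino acid response, which the factor ATF4 runs when amino acids are short, did not move as 1 block. Of 23 genes, 5 were higher and 7 lower in Ebf1wt, 6 higher and 8 lower in Ebf1-H240A, and 2 higher and 2 lower between the forms. Psat1, of serine synthesis, read 10.75 and 10.65 in Empty, 9.74, 9.72 and 9.69 in Ebf1wt, and 9.35, 9.45 and 9.48 in Ebf1-H240A. It fell by 0.98 and 1.27 (adjusted p = 7.30e-05 and 1.88e-05). Cebpb, a partner of ATF4 and a myeloid factor, rose by 1.60 and 2.23 (adjusted p = 3.21e-05 and 7.07e-06) and was called between the forms (0.63, adjusted p = 0.00888). Ddit3, encoding the stress factor CHOP, rose by 1.15 and 1.496 (adjusted p = 0.000136 and 3.30e-05). Chac1, which degrades glutathione, fell by 0.78 and 1.24 (adjusted p = 0.000332 and 3.30e-05) and by a further 0.47 between the forms (adjusted p = 0.0123). Ddit4, an inhibitor of mTORC1, was 0.73 higher in Ebf1-H240A than in Ebf1wt (adjusted p = 0.0159), lost without Ebf1-H240A 1, Ebf1-H240A 3 or Ebf1wt 1 (0.0593, 0.0597 and 0.051). Atf4 itself fell by 0.36 and 0.53 (adjusted p = 0.0212 and 0.00347), the first lost without Empty 1, Ebf1wt 1 or Ebf1wt 3 (0.125, 0.0504 and 0.0564).

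Of 30 genes of amino acid sensing by mTORC1, 2 were higher and 7 lower with each form against Empty, and 1 was lower between the forms, a smaller share than the 38.4% and 44.6% of all genes called against Empty. Without each array in turn the lower count was 3 to 6 in both comparisons with Empty, and leaving out any 1 of the 8 arrays lost at least 1 call. Castor2, from the arginine sensor family, rose by 1.13 and 1.07 (adjusted p = 8.61e-05 and 9.01e-05). Rragb, a lysosomal GTPase that recruits mTORC1, fell by 1.23 in Ebf1wt (adjusted p = 0.00321), and Lamtor4, of its membrane anchor, fell by 0.33 (adjusted p = 0.00545). Rragd, a GTPase partner of that complex, fell by 0.63 in Ebf1-H240A (adjusted p = 0.000699) and by 0.52 between the forms (adjusted p = 0.00923). Seh1l, a subunit of the complex that relieves inhibition of this pathway, fell by 0.36 in Ebf1-H240A (adjusted p = 0.00421).

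Of 12 tested transcription factors known to act on nutrient carriers, 5 were higher and 1 lower in Ebf1wt, 6 higher and 1 lower in Ebf1-H240A, and 0 were called between the forms by limma (3 at an unadjusted p under 0.05). Mycn, a MYC family member of progenitors, read 12.97 and 12.76 in Empty, 9.80, 9.89 and 10.08 in Ebf1wt, and 9.90, 10.14 and 9.91 in Ebf1-H240A. It fell by 2.94 ± 0.12 and 2.88 ± 0.12 (adjusted p = 8.76e-06 and 8.10e-06). Epas1, encoding the hypoxia factor HIF-2α, read 4.18 and 3.45 in Empty, 7.79, 7.76 and 7.74 in Ebf1wt, and 8.22, 8.53 and 8.14 in Ebf1-H240A. It rose by 3.95 ± 0.21 and 4.48 ± 0.21 (adjusted p = 2.86e-05 and 1.33e-05). Tfeb, a regulator of lysosomal genes, rose by 0.78 and 0.76 (adjusted p = 0.000199 and 0.00018), and Myc rose by 0.84 and 0.85 (adjusted p = 0.000763 and 0.000563).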

How the data were processed

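RNA of 8 samples was measured on 1-colour Agilent arrays. The submitters' processing notes name Agilent Feature Extraction (version 10.5.1.1) for the deposited scanner files, which hold a background-subtracted processed intensity per spot, with flags for spots well above background, saturated or outlying, per the file headers. The authors' deposited value table holds log2 values of unstated scaling and served as an alternative.

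From these files, outlier spots and controls were left out, each array was scaled to a common 75th percentile, signals under 1 were set to 1, log2 was taken and spots of a probe were averaged. Probes well above background on fewer than 2 of 8 arrays were dropped, and the brightest probe stood for a gene (16309 genes). Probes were named through RefSeq accessions (GRCm38.p6) where these matched, and the carriers by the name in the scanner files. limma 3.58.1 (R 4.3.3; lmFit and eBayes, no covariate, 5 residual degrees of freedom) fitted all 8 arrays, with Benjamini-Hochberg adjustment over all genes. The script was tested on simulated data. Named carriers are a fixed list of 20, the 8 called with the largest increase and decrease in each comparison, and those detected in all arrays of one group and none of another. Of each neighbouring list, up to 3 called genes with the smallest adjusted p were named. The carriers, lists and motifs were chosen with earlier results of these data known. The labels do not say whether replicate numbers pair the arrays, and the main fit did not pair them. Deviations of same-numbered arrays from their group means correlated with r = -0.33 to 0.19. With 2 or 3 arrays a group these values cannot settle whether arrays were paired. The array's Ebf1 probe cannot separate the deleted gene from the viral insert. A few genes that these rules name are not reported here, though they are included in the counts.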

Additional observations from a re-analysis of the deposited data

How the results depend on the processing

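No carrier called in the main comparison changed sign under an alternative. Nor did a carrier of the fixed list of 20 in any setting where it was called. Other carriers called only under an alternative were not checked for sign. Of the called carriers, 16 of 27 (Ebf1wt against Empty), 23 of 30 (Ebf1-H240A against Empty) and 1 of 6 (Slc2a8, between the forms) stayed called under all alternatives outside single slides. Within slides 1 and 2, which keep 4 arrays each, the carriers called were 1 and 2 for Ebf1wt, 8 and 2 for Ebf1-H240A, and 0 and 0 between the forms. All genes called were then 133 and 398, 1096 and 322, and 0 and 0 (limma, with 1526 and 1600 genes at an unadjusted p under 0.05 between the forms). Between the forms, 6 carriers were called in the main fit, 3 with the deposited value table, 2 with no filter on dim probes and 2 with a replicate block. All genes called between the forms were 641 with the deposited table, 338 with no filter, 646 with the slide as a block and 360 with the replicate block, beside 1038. Leaving out each array in turn gave 2 to 6 carriers and 365 to 839 genes between the forms, 21 to 26 carriers for Ebf1wt and 25 to 31 for Ebf1-H240A against Empty. The cause of these changes was not tested beyond the fewer arrays within slides and without an array. With the replicate block 21 and 27 carriers were called against Empty. The deposited value table gave 19 for Ebf1wt and 27 for Ebf1-H240A, beside 28.2% and 34.3% of all genes. With normexp 20 and 28 carriers were called, beside 26.8% and 33.7% of all genes. Carriers near background (Slc6a7, Slc16a12 and the 38 untested genes) could not be followed at this signal.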
